A study of Mus musculus with 3 samples.

Results

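Osteopontin, encoded by Spp1, and fibronectin, encoded by Fn1, are secreted matrix proteins that cells bind through the same families of surface receptors. Their 2 genes and those of 6 receptor chains (Cd44, Itgav, Itga5, Itgb1, Itgb3 and Itgb5) were followed, 8 of the 27998 genes counted, each taken as the row whose gene symbol matched exactly. The counts came from 3 single-cell libraries of 10-week-old mice taken 3 days after burn/tenotomy, a burn on the back combined with transection of the Achilles tendon, an injury after which bone later forms in the soft tissue. One library each was made from flushed bone marrow after red cell lysis, from the mononucleated fraction of blood on a Ficoll gradient after red cell lysis, and from the whole tendon injury site after enzymatic digestion at 37°C, with no sorting of cells. All 3 groups were injured, with no uninjured group here, and the sources used here do not give how many mice went into each library. With 1 library per site there was no replicate and no test was possible; effects of the site cannot be told apart from those of its preparation or library, and every interval below is a 95% interval that covers counting error only.

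Osteopontin is a phosphoprotein of mineralized matrix that activated macrophages also secrete in wounds, where it acts as an adhesion protein and a cytokine. Fibronectin assembles into the provisional matrix of healing tissue and guides the deposition of collagen. Both hold the tripeptide Arg-Gly-Asp (RGD), the sequence that integrins recognize. An integrin is a pair of 1 alpha and 1 beta chain, so the genes studied can encode the alpha v chain with beta 1, beta 3 or beta 5, which bind osteopontin and fibronectin among other ligands, and the alpha 5 beta 1 pair, the main fibronectin receptor. CD44, the receptor for the matrix sugar hyaluronan, also binds osteopontin.

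The codons of the RGD tripeptide are shown because they are the part of the ligands that the integrins read. They are given on the coding strand, 5′ to 3′, with 9 bases on either side in lower case and the RGD codons in capitals, from the GRCm38 genome and its gene annotation. In osteopontin the motif begins at codon 145 of 294 in exon 7 of 8, at chr5:104439472-104439498 on the plus strand. In fibronectin the integrin-binding motif begins at codon 1614 of 2476 in exon 30 of 46, at chr1:71606737-71606763 on the minus strand. A second in-frame match in fibronectin begins at codon 2181 in exon 40, at chr1:71597434-71597460 on the minus strand.
Spp1, codon 145: cccaacggcCGAGGTGATagcttggct
Fn1, codon 1614: gtcactggcCGTGGGGACagtccagca
Fn1, codon 2181: catgttcccAGGGGAGACgtagactac
The libraries count the 3′ ends of transcripts, so these exons, the alternative exons of Fn1 and Cd44, and the proteins themselves were not measured.

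The 250 bases before the annotated start of Spp1 (RefSeq, GRCm38.p6, chr5:104434861-104435110, plus strand) are shown because Spp1 was the member whose level differed most between sites.
Spp1 promoter: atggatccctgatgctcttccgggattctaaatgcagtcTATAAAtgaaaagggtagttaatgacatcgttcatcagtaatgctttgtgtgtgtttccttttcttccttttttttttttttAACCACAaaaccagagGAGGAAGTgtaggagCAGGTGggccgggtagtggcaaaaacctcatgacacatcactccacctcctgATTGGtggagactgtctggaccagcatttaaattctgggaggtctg
Capitals mark matches to 5 short motifs, searched on both strands. TATAAA, the letters of the TATA box motif, starts 211 bases upstream and occurs in the same window of 12.4% of 32851 promoters. Whether it serves as a TATA box at that distance was not tested. AACCACA, which RUNX factors bind, starts 129 bases upstream and is found in 4.4% of promoters. GAGGAAGT, which PU.1 of myeloid cells binds, starts 113 bases upstream and is found in 2.44%. CAGGTG (E-box) starts 98 bases upstream and is found in 17.2%. CCAAT lies on the minus strand 46 bases upstream and is found in 33.8%. TGANTCA (AP-1), TGACGT (CRE) and TTGCNNAA (C/EBP) had no match in this window, against 6.75%, 6.47% and 9.56% of promoters. A match is a description of the letters and not a bound site.

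The genes lie on 7 chromosomes of GRCm38. Spp1 is at chr5:104435118-104441050 on the plus strand, and Fn1 is at chr1:71585520-71653200 on the minus strand. Cd44 (chr2:102811141-102901665, minus) and Itgav (chr2:83724397-83806916, plus) share chromosome 2. Itga5 is at chr15:103344286-103366763 on the minus strand, Itgb1 at chr8:128685654-128733200, Itgb3 at chr11:104608000-104670476 and Itgb5 at chr16:33829665-33949338, all 3 on the plus strand. No counted gene on the same strand overlaps an exon of any of the 8.

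After filters on genes and mitochondrial UMIs (unique molecular identifiers, 1 per captured transcript) and removal of likely doublets, 1813 marrow, 2146 blood and 4780 tendon cells remained of 1855, 2241 and 5629. The cells were clustered within each library without the 8 genes and the 74 other pathway genes described below. Clusters were called after marker genes, which left 50, 110 and 175 cells unnamed. The names are this re-analysis's own and mean marker-like cells throughout. They gave 24 combinations of site and cell class. The libraries held 49580625, 22542581 and 90621052 UMIs, with median counts per cell of 22836, 8316 and 11082, and shared 1 to 6 cell barcodes in pairs. Levels are counts scaled to a group total of 1000000 UMIs (CPM), summed over the cells of the group. Shares of cells with a UMI are given after thinning every cell to 1000 UMIs, since the median depth of the classes ran from 2871 to 39636.5 UMIs per cell.

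Spp1 was abundant in the injured tendon and close to absent from blood and marrow. Over all kept cells its level was 1177 CPM (95% interval, 1169–1184) in the tendon, 8.77 (7.96–9.65) in marrow and 4.30 (3.48–5.26) in blood. The 9 highest of the 24 class levels were all tendon classes, and no class of blood or marrow passed 14.6 CPM. In the tendon, monocyte/macrophage cells held 2129.9 CPM (2114–2146), neutrophils 1709 (1656–1764), Schwann cells 1129 (1054–1208) and mesenchymal cells 827 (816–839). Each of these 4 differed from the next in the order by more than counting error. Below them, basophil/mast cells stood at 249.6 CPM, of which 95.8% of 71 UMIs lay in 3 cells. Tendon B cells, mural cells, keratinocytes and dendritic cells followed at 79.8, 45.0, 40.02 and 38.6 CPM, and neighbours among these 4 did not differ beyond counting error. Without their 3 highest cells the mural, keratinocyte and dendritic levels were 10.1, 10.9 and 17.9 CPM, near the 14.6 CPM of marrow monocytes, and the Schwann level was 742 CPM. Tendon endothelial cells, the lowest class of that library, held 11.8 CPM (9.57–14.5), near the levels of marrow and blood.

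In blood and marrow the same classes were low in Spp1. Blood monocyte/macrophage cells held 5.37 CPM (42 UMIs in 461 cells) and blood neutrophils 11.2 CPM (45 UMIs in 399 cells, 73.3% of them in 3 cells). Marrow monocytes held 14.6 CPM and marrow neutrophils 4.45 CPM. Blood B cells had no Spp1 UMI, which allows up to 1.38 CPM by the limit of 3 counts, and blood T cells had 1 UMI in 633 cells. After thinning, 39.5% of tendon neutrophils, 34.8% of tendon monocyte/macrophage cells, 30% of Schwann cells and 9.90% of mesenchymal cells had a Spp1 UMI. Tendon endothelial cells of the same library, the class with the least Spp1 there, had one in 0.441% (median depth before thinning 25254 UMIs, against 3496 in tendon neutrophils and 11742 in tendon monocyte/macrophage cells).

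**Figure D1:**
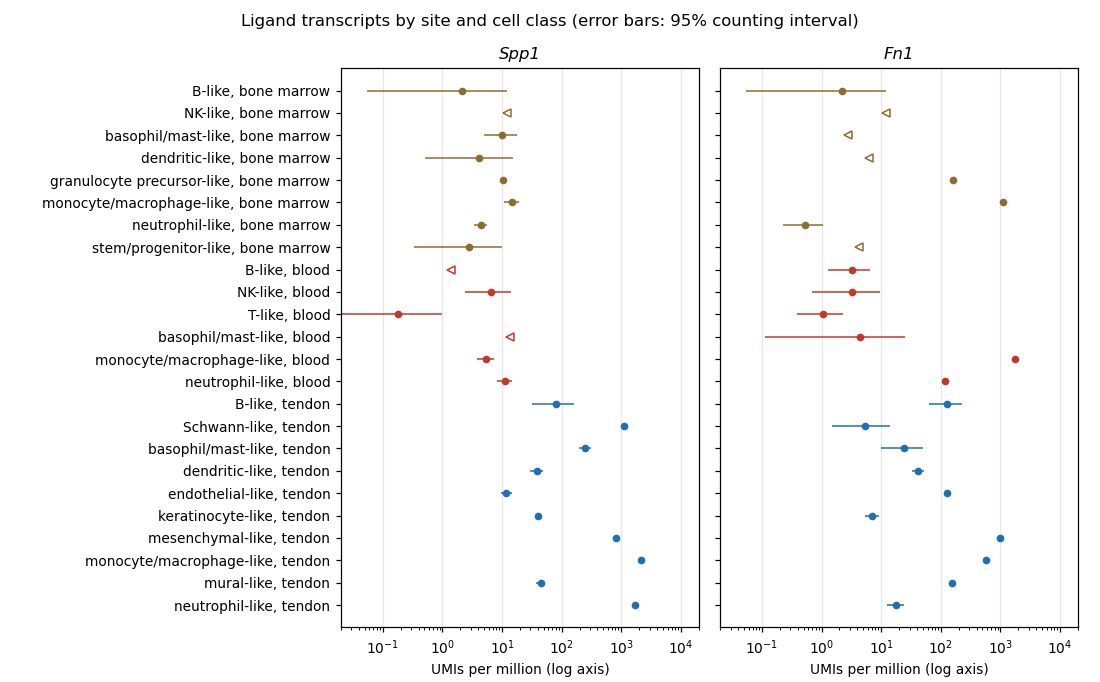
Spp1 and Fn1 levels by site and cell class: the x axis gives CPM on a log scale, each point is 1 class of 1 library with its 95% counting interval, and open triangles mark groups with no UMI, drawn at the limit of 3 counts. Spp1 is high in tendon classes only, up to 2129.9 CPM, while Fn1 is highest in blood monocyte/macrophage cells at 1732 CPM.

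Spp1 was spread unevenly over the 13 monocyte/macrophage clusters of the tendon, from 45.9 to 11659 CPM, with a median of 960.6 CPM over clusters. The highest was a cluster of 64 cells led by Arg1 (arginase 1), Cxcl3 and Il7r, at 11659 CPM (11417–11905). Next came 257 cells led by Ppbp (a platelet-type chemokine), Arg1 and F7 (coagulation factor VII), at 8290 CPM. These 2 clusters had a Spp1 UMI in 78.1% and 76.6% of thinned cells. A cluster led by Gpnmb and Cd5l (39 cells) held 3711 CPM, and one led by interferon-induced genes such as Ifit2 and Rsad2 (128 cells) held 2709 CPM. The cells led by Atp6v0d2 that also carried Ctsk and Tnfrsf11a, genes used by osteoclasts, held 960.6 CPM (925.4–996.8), the middle value of the 13. The monocyte-like cluster led by Ly6c2 and Plac8 (420 cells) held 256.4 CPM, and the 23 cells led by Cd209d, Cd209g and Cd209f held 45.9 CPM (29.4–68.3), the lowest.

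Fn1 did not follow the same order across these 13 clusters. The Arg1 cluster was highest for Fn1 too, at 2589 CPM (2476–2706), and the Cd209d cluster was lowest, at 7.65 CPM (4 UMIs). The Ppbp cluster, next in order for Spp1, held 953 CPM of Fn1. The Gpnmb and Ifit2 clusters, which followed it for Spp1, held only 80.2 and 107 CPM of Fn1. The Ly6c2 monocyte-like cluster, second lowest for Spp1, held 644.8 CPM of Fn1, and a cluster led by Il10 and Tnfsf9 (278 cells) held 952.5 CPM of Fn1 and 700.3 CPM of Spp1. Cd44 was likewise highest in the Arg1 cluster at 927 CPM and lowest in the Cd209d cluster at 141 CPM.

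**Figure D2:**
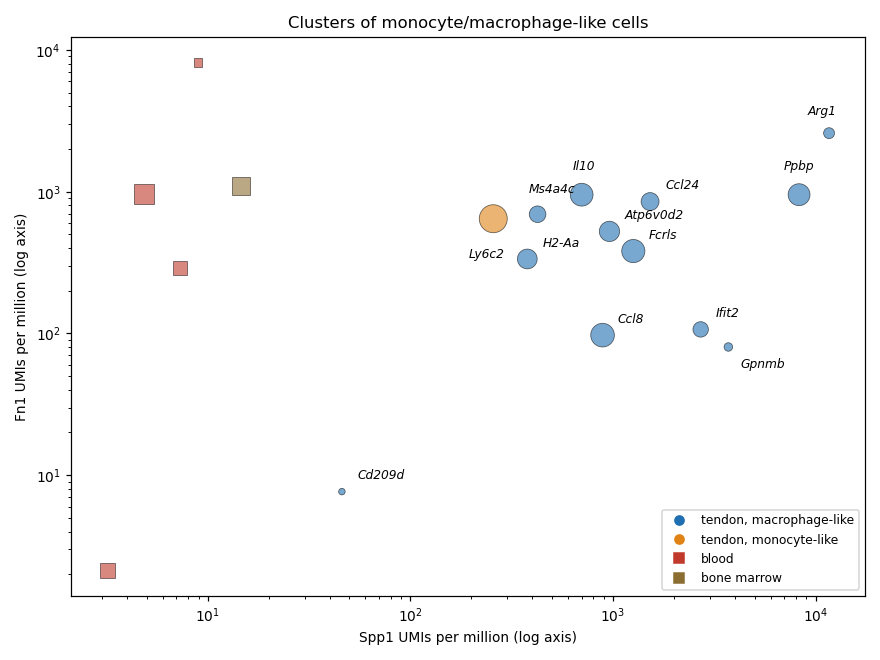
Spp1 against Fn1 in monocyte/macrophage clusters of the tendon and of the other sites: both axes give CPM on log scales, each point is 1 cluster with an area in proportion to its cells, tendon clusters carry the symbol of a leading gene, and the blood cluster with no Spp1 UMI is drawn at the limit of 3 counts. The Arg1 and Ppbp clusters sit at the right with 11659 and 8290 CPM of Spp1, while the blood macrophage-like cluster sits at the top with 8148 CPM of Fn1 and 8.94 CPM of Spp1.

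Within the monocyte/macrophage and mesenchymal classes of the tendon, the richest cells held a larger share of Spp1 than of Fn1. In tendon monocyte/macrophage cells the 255 cells with the most Spp1, 10% of the class, held 78.7% of its Spp1 UMIs, and the 255 with the most Fn1 held 54.3% of its Fn1 UMIs. In tendon neutrophils the top 56 cells held 62.9% of Spp1. In mesenchymal cells the top 69 cells held 98.1% of Spp1 but 50.2% of Fn1. For comparison, marrow monocytes held 25.7% of their Fn1 in the top 18 cells, so the share varied with the gene and the class. With every cell thinned to 1000 UMIs, the richest 10% of tendon monocyte/macrophage cells held 75.5% of Spp1 and 58.7% of Fn1, and the richest 10% of tendon neutrophils held 64.7% of Spp1. Among monocyte/macrophage cells thinned to 2000 UMIs, an Fn1 UMI was found in 45.4% of cells with Spp1 and in 41.7% of cells without, and a Cd44 UMI in 55.1% and 61.5%.

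**Figure D3:**
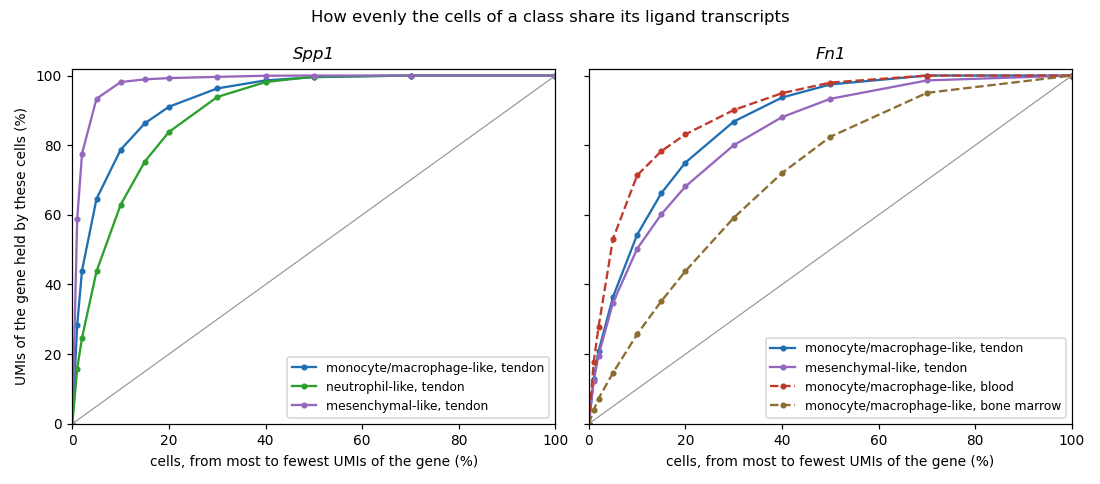
Share of a gene's UMIs held by the cells richest in it: the x axis gives the percentage of cells of a class taken from the highest down, the y axis the percentage of the UMIs of Spp1 or Fn1 that they hold, each line is 1 class of 1 library, and the grey diagonal is an even share. The Spp1 line of mesenchymal cells rises first, with 98.1% of UMIs in 10% of cells, and the Fn1 line of marrow monocytes rises last, with 25.7%.

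Tendon neutrophils carried Spp1 in both of their clusters. The 307 cells led by Retnlg, Ly6g and Cxcr2 held 1018 CPM (968–1070), and the 252 cells led by Il23a, Hcar2 and Il1a held 3127 CPM (3000.3–3257). The second cluster was shallow, at a median of 2799 UMIs per cell, and had only 1 neutrophil marker among its 10 leading genes. All 11 macrophage markers had UMIs in tendon neutrophils, with a summed level of 277.3 CPM, against 193.0 CPM for 9 of 11 in blood neutrophils and 20559 CPM in tendon monocyte/macrophage cells. C1qb, an abundant macrophage transcript, was at 17.4 CPM in tendon neutrophils and 2286 CPM in tendon monocyte/macrophage cells. For each 100 C1qb UMIs, tendon neutrophils held 9831 Spp1 UMIs, and tendon monocyte/macrophage cells held 93.2. Tendon B cells, which held C1qb at 1197 CPM, had 6.67 Spp1 UMIs per 100 of C1qb, the lowest of the tendon classes. Dendritic cells, basophil/mast cells, keratinocytes, endothelial cells and mural cells of the tendon had 34.4, 124.6, 144.7, 213.6 and 846.7. Mesenchymal and Schwann cells had 7664 and 13950. Free RNA was not measured, and its part in the neutrophil level was not tested.

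Mesenchymal cells of the tendon held Spp1 at 827 CPM, but few cells accounted for it. Of 688 cells, 288 had a Spp1 UMI, and 3 cells with 3184, 2836 and 2455 Spp1 UMIs held 39.5% of the 21460. Without those 3 cells the level was 504 CPM. All 3 were in the cluster of 350 cells led by Crabp1, Il1rl1 and Cxcl5, which held 1089 CPM, or 594 CPM without them. A cluster led by C1qtnf3, Cilp and Aspn (201 cells) held 39.4 CPM, or 15.8 without its 3 highest cells, and one led by Sfrp4 and Gdf10 (98 cells) held 165 CPM, or 54.3. The 39 tenocyte-like cells, led by Chad, Kera and Angptl7 with Comp, Fmod and Tnmd, held 3241 CPM, which fell to 1512 CPM without their 3 highest cells. Tenocyte-like cells thus held more Spp1 than the other mesenchymal clusters with or without their highest cells. Schwann cells held 2625 CPM (1709.97 without their 3 highest cells) in the 31 cells led by Mal and Ncmap, genes of myelinating cells, and 329 CPM (77.5 without them) in the 31 cells led by Syt4, Shh and Ngfr.

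Fn1 was spread over all 3 sites and 4 classes carried most of it. Blood monocyte/macrophage cells held 1732 CPM (1703–1761), marrow monocytes 1089 (1053–1125), tendon mesenchymal cells 972 (959.9–984) and tendon monocyte/macrophage cells 581 (572–589). Each differed from the next by more than counting error. Fn1 UMIs were found after thinning in 57.3% of marrow monocytes, 44.3% of mesenchymal cells, 41.0% of blood and 31.7% of tendon monocyte/macrophage cells, against 1.67% of tendon neutrophils and 0 of 60 Schwann cells. Before thinning 3 of 62 Schwann cells had an Fn1 UMI. Marrow granulocyte precursors, tendon mural cells, tendon B cells and tendon endothelial cells followed at 159.96, 154, 125 and 125 CPM, and neighbours among these 4 did not differ beyond counting error. The B cell value rested on 11 UMIs in 1 cell of 22. Marrow B, NK, basophil/mast, dendritic and stem/progenitor cells had at most 1 Fn1 UMI each.

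The high blood value came from a small cluster. Of the 461 blood monocyte/macrophage cells, 37 macrophage-like cells led by Prg4, Cd5l, Alox15 and Timd4, genes known from macrophages of body cavities, held 8148 CPM (7981–8317) with Fn1 in every thinned cell. The other 424 cells, all monocyte-like, held 661 CPM (642–681). Among these, clusters led by F13a1, Chil3 and Mmp19 (215 cells) and by H2-DMb1, Aif1 and Slamf8 (94 cells) held 960.2 and 289 CPM, and the 115 cells led by Cd300e, Eno3 and Ace, genes of nonclassical monocytes, held 2.13 CPM. Fn1 thus fell by more than counting error from the first of these monocyte clusters to the last. Col1a1, Col3a1 and Dcn, defining genes of mesenchymal cells, had no UMI in blood monocyte/macrophage cells.

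In marrow, Fn1 of the granulocyte precursors sat in 2 of 7 clusters. The 94 cells led by H2-Ab1, H2-Aa and Cd74 held 565 CPM and the 75 cells led by Klf4, Nrg1 and Prdx4 held 640.4 CPM, while the other 5 held at most 2.65 CPM. Both carried Elane, Prtn3, Ctsg and Mpo, and monocyte/macrophage markers were their second best match. For the other 5 clusters the second best match was neutrophil or stem/progenitor markers. Whether the 2 clusters held precursors of monocytes was not tested. In blood neutrophils 3 of 399 cells held 460 of the 473 Fn1 UMIs. These 3 cells had a median of 62637 UMIs and a summed monocyte marker level of 4769 CPM, against 8594.5 UMIs and 1447 CPM in the other 396, which held 3.37 CPM of Fn1. Whether the 3 were mixed droplets was not tested.

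Tendon mesenchymal Fn1 varied from 288 CPM in the Sfrp4 cluster, through 689 CPM in the Crabp1 cluster and 1643 CPM in the C1qtnf3 cluster, to 4148 CPM (4004–4296) in tenocyte-like cells. The C1qtnf3 cluster thus stood second for Fn1 and last for Spp1. In the endothelium, 33 cells led by Ccl21a, Mmrn1 and Prox1, genes of lymphatic vessels, held 549.9 CPM of Fn1 (495–609), and the 198 cells led by Ackr1 and Sele held 86.0 CPM. Of the 33 cells, the highest and second held 97 and 52 of the 992 Fn1 UMIs of all tendon endothelial cells.

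Cd44, the hyaluronan and osteopontin receptor, was highest in neutrophils of the tendon. It held 1337 CPM (1290–1386) in tendon neutrophils, 636.5 (612–662) in blood neutrophils and 264 (256–272) in marrow neutrophils, and the 3 intervals were apart. After thinning 70.5%, 49.5% and 26.9% of these cells had a Cd44 UMI, against 2.20% of tendon endothelial cells. After tendon and blood neutrophils, tendon and blood monocyte/macrophage cells came next among all groups, at 513 and 388.5 CPM, ahead of marrow neutrophils. Monocyte-like cells held 788 CPM in the tendon, 421 CPM in blood and 256 CPM in marrow, the same order of sites as neutrophils. Tendon mesenchymal cells held 256 CPM. The lowest of the 24 levels were tendon endothelial cells at 18.4 CPM and blood T cells at 11.2 CPM (63 UMIs in 633 cells), where each differed from its neighbours beyond counting error.

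As whole classes, the cells of blood and marrow were low in the alpha chains. Itgav (alpha v) was highest in Schwann cells at 154 CPM (127–185), followed by mesenchymal cells at 86.2 (82.7–89.9), tendon monocyte/macrophage cells at 79.9 (76.8–83.0) and mural cells at 65.9. Blood monocyte/macrophage cells held 38.5 CPM and marrow monocytes 20.96 CPM. Within that blood class, however, the Cd300e cluster of 115 cells held 107 CPM of Itgav. Among tendon monocyte/macrophage clusters Itgav ran from 9.56 CPM in the Cd209d cluster to 171 CPM in the Atp6v0d2 cluster. Itga5 (alpha 5, the fibronectin-specific chain) was highest in mural cells at 169 CPM (154–185), then endothelial cells at 109.9 and mesenchymal cells at 109 CPM, which did not differ beyond counting error. Tendon monocyte/macrophage cells held 61.7 CPM of Itga5, tendon neutrophils 51.3 CPM and blood neutrophils 5.47 CPM. Marrow neutrophils had 7 Itga5 UMIs in 807 cells, 0.465 CPM. The 7 highest Itga5 levels were all tendon classes.

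The 3 beta chains had different patterns. Itgb1 (beta 1, the partner of most alpha chains) had UMIs in all 24 groups, from 14.5 CPM in marrow neutrophils to 946.5 CPM (911–983) in tendon mural cells. Blood NK cells and tendon endothelial cells stood next at 526 and 516.5 CPM and did not differ beyond counting error. Neutrophils were low in Itgb1 at each site, at 14.5 CPM in marrow, 28.4 in blood and 52.6 in the tendon. In blood, 3 cells held 43.0% of the 114 Itgb1 UMIs. Without the 3 highest cells of each group the levels were 13.8, 16.6 and 48.8 CPM in the same order. Itgb5 (beta 5) was led by tendon monocyte/macrophage, mural and mesenchymal cells at 93.8, 92.8 and 88.1 CPM, with no difference beyond counting error between neighbours. Tendon B cells (4 UMIs) and Schwann cells followed at 45.6 and 41.8 CPM, ahead of the blood and marrow monocyte groups at 34.9 and 27.3 CPM, and 807 marrow neutrophils had no Itgb5 UMI, which allows up to 0.199 CPM. Within the tendon macrophages Itgb5 was highest in the Gpnmb cluster at 329 CPM (289–374) and lowest in the Cd209d cluster at 5.74 CPM.

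Itgb3 (beta 3), which pairs with alpha v to bind osteopontin on osteoclasts, was scarce, with 918 UMIs in the 3 libraries. Its highest level was 53.8 CPM (27.8–94.1) in blood basophil/mast cells, from 12 UMIs, and then 34.3 CPM (30.3–38.6) in tendon endothelial cells and 24.98 CPM in marrow dendritic cells. These 40 marrow cells were led by Siglech, a gene of plasmacytoid dendritic cells, unlike the tendon dendritic class, led by Klrd1 and Cd209a. Marrow neutrophils held 13.8 CPM, blood neutrophils 4.97 CPM and tendon neutrophils 1.78 CPM (4 UMIs). Tendon monocyte/macrophage cells had 15 Itgb3 UMIs in 2546 cells, 0.476 CPM (0.267–0.785), and the Atp6v0d2 cluster with the osteoclast genes had 1.03 CPM. Of tendon monocyte/macrophage cells thinned to 2000 UMIs, 18.7% of those with Itgav had Itgb5 against 14.9% of those without. Itgb3 was in only 3 of these 2410 cells, too few to say whether it lay in the same cells as Itgav.

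**Figure D4:**
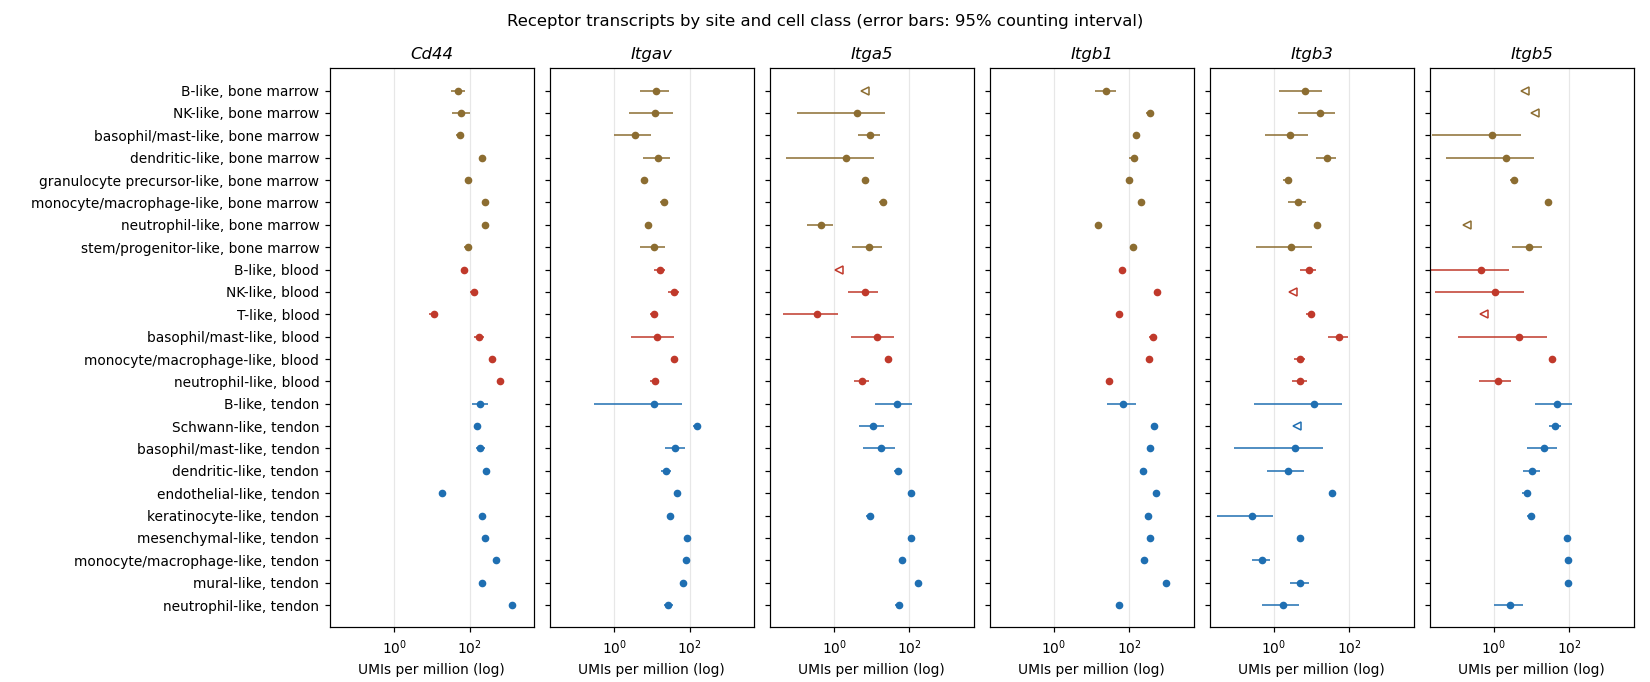
Levels of the 6 receptor genes by site and cell class: the x axes give CPM on a log scale, points are classes of 1 library with 95% counting intervals, and open triangles mark groups with no UMI at the limit of 3 counts. Cd44 peaks at 1337 CPM in tendon neutrophils, Itga5 and Itgb1 in mural cells at 169 and 946.5 CPM, and Itgb3 stays at or below 53.8 CPM.

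Between blood and tendon monocyte/macrophage cells, Spp1 was 396.7-fold higher in the tendon (2129.9 against 5.37 CPM), a log2 ratio of 8.63 (8.20–9.10). Fn1 was lower in the tendon, at a log2 ratio of −1.58 (−1.61 to −1.54). Itgb5, Itga5 and Itgav were higher by 1.43, 1.22 and 1.05 on the log2 scale, Cd44 by 0.40, and Itgb1 was lower at −0.38 and Itgb3 at −3.35 (−4.32 to −2.45, from 15 and 38 UMIs). Of the 38 blood Itgb3 UMIs, 52.6% lay in 3 cells, and the blood level was 2.31 CPM without them, against 0.476 CPM in the tendon. At least 2-fold, 4 of the 8 were higher and 2 lower, where of 12038 genes with at least 20 UMIs 18.2% were higher and 13.4% lower by that measure. The median log2 ratio was 0.73 over the 8 and −0.0046 over all of these genes. Itgav was at the edge of the 2-fold limit, at 2.08-fold. Without the blood macrophage-like cluster, an alternative chosen after seeing the data, the Fn1 ratio was −0.19, Itgav fell below the 2-fold limit at 0.94 and Itgb1 turned to 0.00086, while Spp1 stood at 8.80.

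Set against each other alone, the monocyte-like cells of the 2 sites gave smaller differences than the whole classes for Spp1 and Fn1, and larger ones for Cd44 and Itgb1. The intervals of Itga5 and Itgb3 overlapped those of the whole classes. Spp1 held 256 CPM in the tendon and 4.77 CPM in blood, a log2 ratio of 5.75 (5.24–6.30). Fn1 held 645 and 661 CPM, a ratio of −0.04 whose interval, −0.10 to 0.03, included no difference. The blood group pooled the F13a1, H2-DMb1 and Cd300e clusters, the last at 2.13 CPM of Fn1, while the tendon group was the Ly6c2 cluster alone. The F13a1 cluster by itself held more Fn1 than the tendon group, so this ratio depends on the blood clusters pooled. Cd44 was 0.91 higher and Itga5 1.30 higher in the tendon, Itgb1 was lower at −0.66, Itgb3 at −4.50 (−9.85 to −1.92, from 1 and 33 UMIs), and Itgav and Itgb5 had intervals that included 0. Of the 33 blood Itgb3 UMIs, the highest and second cell held 10 and 8. By itself the blood F13a1 cluster held 153 CPM of Itgb1, near the 157 CPM of the tendon group. The Itgb1 ratio thus also depends on the blood clusters pooled. Itgb3 in the F13a1 cluster stood at 0.972 CPM, against 4.92 CPM in the pooled blood group. Within the tendon, macrophage-like cells (2126) against monocyte-like cells (420) held more Spp1 (2450.4 against 256 CPM, log2 ratio 3.26), more Itgav (1.24), Itgb5 (1.10) and Itgb1 (0.75), and less Cd44 (−0.76). Fn1 differed little there, at −0.18.

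Between blood and tendon neutrophils, Spp1 was 152.7-fold higher in the tendon (1709 against 11.2 CPM), a log2 ratio of 7.25 (6.83–7.71). Itga5 was higher by 3.23 (2.56–3.96) from 22 and 115 UMIs, Itgav by 1.21, Cd44 by 1.07 (0.99–1.15) and Itgb1 by 0.89. Without the 3 highest cells of each group, Itgb1 was at 48.8 CPM in the tendon and 16.6 CPM in blood. Fn1 was lower at −2.72 (17.8 against 118 CPM), but the 396 blood neutrophils other than the 3 described above held 3.37 CPM, less than the tendon cells. In the tendon 55.0% of the 40 Fn1 UMIs also lay in 3 cells, and the level was 8.10 CPM without them. Itgb3 was at −1.48 with an interval from −3.49 to 0.10, and Itgb5 had 11 UMIs in both groups together, under the limit of 20. Of the 7 members with 20 UMIs, 4 were at least 2-fold higher and 2 lower in the tendon, where of 7479 genes 12.1% were higher and 22.9% lower. Cd44 and Itgav were near the limit, at 2.10- and 2.32-fold, and the 2 lower were Fn1 and Itgb3, with the limits given above. S100a8 and S100a9 held 143114 and 150923 CPM in blood neutrophils, against 73236 and 90177 CPM in the tendon. This left a larger share of the total for all other genes in the tendon. From marrow to blood, neutrophil Cd44 rose from 264 to 636.5 CPM and Itgb3 went from 13.8 to 4.97 CPM, log2 ratios of 1.27 (1.20–1.34) and −1.47 (−2.21 to −0.81). These levels pool clusters that differed: the marrow neutrophils led by Il1b held 636.5 CPM of Cd44 and 2.76 CPM of Itgb3. How far the mix of marrow clusters set these ratios was not tested.

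Within the tendon, mesenchymal cells held less Spp1 and less Cd44 than monocyte/macrophage cells (log2 ratios −1.36 and −1.003) and more Fn1 (0.74), Itga5 (0.82) and Itgb1 (0.48). Itgb3 was higher by 3.33, from 124 and 15 UMIs. Itgav and Itgb5 were close to level, at 0.11 (0.03–0.19) and −0.09 (−0.17 to −0.01). Of the 8, 1 was at least 2-fold higher and 2 lower, against 31.4% and 19.9% of 13816 genes.

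**Figure D5:**
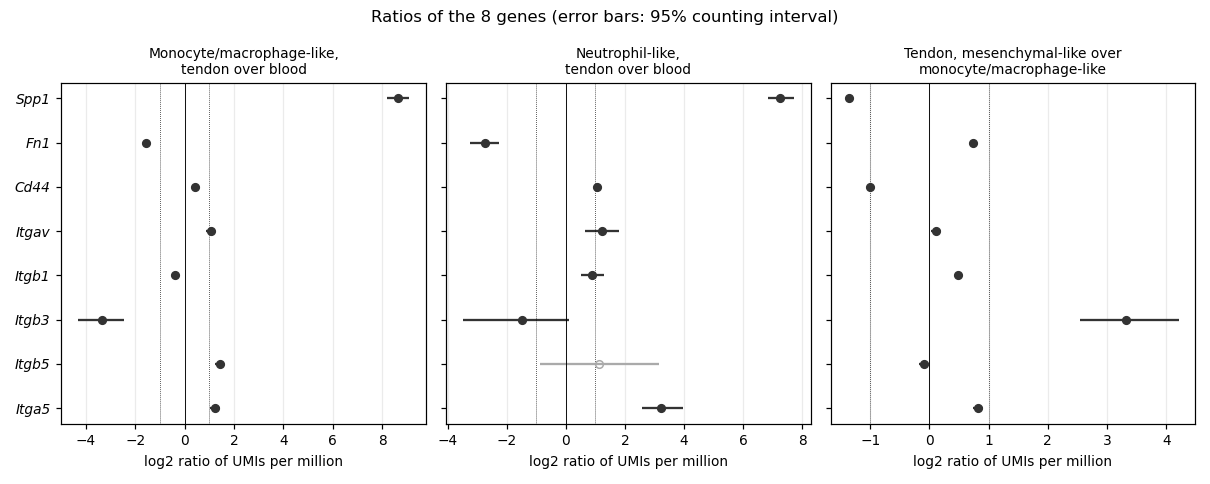
Log2 ratios of the 8 genes between groups of cells: the x axis gives the log2 ratio of CPM, points are genes with 95% counting intervals, the open point had under 20 UMIs, dotted lines mark 2-fold and each panel is 1 comparison. Spp1 lies at 8.63 for monocyte/macrophage cells and 7.25 for neutrophils of the tendon against blood, and at −1.36 for mesenchymal against monocyte/macrophage cells of the tendon.

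The other genes of these pathways came from 5 lists with 74 genes in all. In monocyte/macrophage cells of the tendon against blood, 24 of the 55 with at least 20 UMIs were at least 2-fold higher and 6 lower, with a median log2 ratio of 0.76, beside 18.2% higher and 13.4% lower of all 12038 genes. The proteases and modifying enzymes that cut or crosslink the ligands contributed 11 of 14 (median 2.55, none lower). Mmp14, a membrane-bound matrix metalloproteinase, held 89.9 CPM in the tendon against 3 UMIs in blood (log2 ratio 7.87, 6.32–10.15), and Plau, the urokinase that activates plasmin, 24.5 CPM against 1 UMI (7.58, 5.10–12.89). Mmp12, macrophage elastase, stood at 15.1 CPM against 2 UMIs and Mmp9, gelatinase B, at 95.4 against 6.26 CPM. Sdc4, a proteoglycan coreceptor for fibronectin, held 319 CPM in the tendon and 3 UMIs in blood (9.70, 8.15–11.98).

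The other receptors went both ways in the same comparison, with 2 of 8 higher and 4 lower. Itga9, an alpha chain that binds osteopontin, was higher by 3.14 on the log2 scale. Itga4, the alpha 4 chain that binds a separate site of fibronectin, was lower (89.3 against 439 CPM, −2.30), as were Itgax (−2.04) and Itgb2 (−1.44), chains of the leukocyte beta 2 integrins. Of the other ligands 6 of 12 were higher and none lower. Postn (periostin) had 143 UMIs in the tendon and none in blood, at least 3.57 higher on the log2 scale by the limit of 3 counts. Mesenchymal cells of the tendon held 1155 CPM of Postn, against 4.54 CPM in tendon monocyte/macrophage cells. Their genes Col1a1, Col3a1 and Dcn held 5197, 6947 and 3808 CPM there, against 16.7, 25.8 and 11.9 in tendon monocyte/macrophage cells. Blood monocyte/macrophage cells had no UMI of these genes. Free RNA was not measured, and its part in the ligand and enzyme ratios was not tested. Of 18 adaptors of integrins and CD44, 4 were higher and 2 lower, among the first Src (5.16, against 1 UMI in blood) and Actn1 (2.97). Of 3 other alpha partners of beta 1, 1 was higher.

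In neutrophils of the tendon against blood, 8 of 30 other pathway genes were at least 2-fold higher and 3 lower, with a median of −0.04 against −0.29 over all 7479 genes, of which 12.1% were higher and 22.9% lower. Of the enzymes 5 of 9 were higher and none lower, of the other receptors 2 of 4 and 1, and of the other ligands 1 of 2 and none. Tgm2, the transglutaminase that crosslinks fibronectin, held 316 CPM in the tendon and 10.2 CPM in blood (log2 ratio 4.95, 4.50–5.45). Plaur, the urokinase receptor, held 707 and 172 CPM (2.04), and Srgn, a proteoglycan of leukocyte granules that CD44 binds, 9335 and 2496 CPM (1.90). Adam17 and Adam8, surface proteases, were higher by 1.66 and 1.37, and Itgax by 1.40. Itga4 was lower at −1.42 and Rdx at −1.17, 1 of 14 adaptors past the limit. The remaining named genes stayed within 2-fold, with Lims1 at 0.88, Fermt3 at −0.80, Adam15 at −0.73 and Tln1 at −0.68.

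In mesenchymal against monocyte/macrophage cells of the tendon, 29 of 62 other pathway genes were at least 2-fold higher and 20 lower, with a median of 0.71 beside 0.28 over all genes tested, of which 31.4% were higher and 19.9% lower. Other ligands accounted for 12 of 15 higher and 2 lower (median 7.34). Postn held 1155 against 4.54 CPM and Fbn1 (fibrillin 1) 699 against 2.25 CPM. Has2, which makes hyaluronan, the sugar ligand of CD44, held 111 against 0.159 CPM (9.45, 8.23–11.08), and Ctgf 148 against 0.603 CPM. The enzymes split, with 5 of 14 higher and 8 lower: Mmp3 and Mmp2 were at 8.05 and 7.08, and Mmp12 at −8.62, from 1 UMI in mesenchymal cells. Among adaptors, 7 of 18 were higher and 5 lower. Fermt2 and Parva, adhesion adaptors of nonblood cells, were higher at 6.82 and 6.33, and Fermt3, the kindlin of blood cells, was lower at −7.54. Itga4 (−7.59) and Itgb2 (−6.95) were among 4 lower and 2 higher of 9 other receptors, and 3 of 6 other alpha partners of beta 1 were higher and 1 lower.

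The genes whose levels were most like those of each member are given as a description, by the Pearson correlation of log2(CPM + 1) over the 18 groups of at least 50 cells, which share libraries and depth. For Spp1 these were Srxn1 (r = 0.87), Ccl8 and Egr2 (0.86), and Ptp4a1 and Fth1 (0.85). For Fn1 they included Vcan and Cd302 (0.90), and Guca1a and Mnda (0.88). For Cd44 they were Clec4d (0.85), Sesn2 and Rnf149 (0.83), and Snx18 and Clec4e (0.82). Itgav was closest to Serinc1 (0.93) and Dusp18 (0.91), Itga5 to Fndc3b (0.91) and Ywhag (0.90), Itgb1 to Kifc3 (0.94) and Raph1 (0.93), and Itgb5 to Adam9 (0.93) and Iqsec2 (0.92). Itgb3 had no close match, with Calcrl at 0.76 and Insr at 0.68. Among the members themselves, r was 0.81 for Itgb5 with Itga5, 0.79 for Itgav with Itgb5 and with Itgb1, 0.33 for Spp1 with Fn1, and −0.52 for Spp1 with Itgb3.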

How the data were processed

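Libraries were made by the authors with 10x 3′ chemistry, and per the file headers Cell Ranger 5.0.1 produced the deposited UMI counts per gene and cell; the submitters' processing notes name mm10, with no annotation release given. Cells with at least 200 genes and at most 20% mitochondrial UMIs were kept (15, 57 and 651 removed from marrow, blood and tendon), and Scrublet (scanpy 1.11.5) scores removed 27, 38 and 198 likely doublets at an assumed rate, since its automatic threshold marked 6 tendon cells. Each library was clustered alone (2000 variable genes without the 8 members and the 74 other pathway genes, 30 components, 15 neighbours, Leiden resolution 1.5). Clusters took the class with the highest mean marker z-score. The naming rule was settled after the clusters were seen, and the members and gene lists were chosen with earlier results of these data known. Counts were summed per site and class and given as CPM. CPM intervals are exact Poisson, shares exact binomial and ratios exact binomial splits, all at 95% and for counting error only; a count of 0 was read against 3 counts. Genes with at least 20 UMIs over both groups were compared, and called at 2-fold. Of other pathway genes, those with at least 100 UMIs and the largest ratios in each direction were named, up to 4 per list and 12 per comparison. The 8 promoter motifs were chosen with the Spp1 sequence in view; 6 of the 8 members had a promoter entry. The ratio and interval code was run on simulated counts drawn independently per gene and group. That run cannot say how the intervals hold where few cells carry most UMIs. Python 3.11.15, scipy 1.17.1 and, for an integrated alternative, Seurat 5.3.0 were used. Some genes that the naming rules select are not reported here.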

Additional observations from a re-analysis of the deposited data

How the results depend on the processing

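No paired analysis was possible because each site had 1 library. Of the main results recomputed under the alternatives, 43 values stayed within their interval or limit, 25 moved and 1 reversed; among other values 109 stayed, 45 moved and 3 reversed. The cause of these shifts was not tested. The log2 ratio of Spp1 between tendon and blood neutrophils (7.25) was 6.59 with doublets kept and 6.76 with cells weighted equally. That between tendon and blood monocyte/macrophage cells (8.63) was 9.12 after Seurat integration, where a large monocyte cluster went unnamed and 158 blood cells remained. The Fn1 ratio there (−1.58) was −2.97 integrated, −1.63 at resolution 0.8, −1.72 with cells named one by one, −0.91 with cells weighted equally and −0.19 without the blood macrophage-like cluster. For mesenchymal against monocyte/macrophage cells, Spp1 (−1.36) was −1.28 with the stricter cell filter, −0.89 with doublets kept and −1.71 integrated. It was −1.21 with the 8 genes and the other pathway genes among the variable genes, and also at resolution 0.8. It was −1.16 with cells named one by one, −1.18 with cells weighted equally and −1.50 without genes above 1% of UMIs. In the same order of filter, doublets, integration, equal weights and abundant genes, Fn1 (0.74) was 0.70, 0.71, 0.83, 0.85 and 0.61, and Itgb5 (−0.09) was −0.18, −0.19, −0.28, 0.034 and −0.23, so Itgb5 had no stable direction. Itgav reversed to −0.025 without the abundant genes, Itgb1 between tendon and blood monocyte/macrophage cells to 0.00086 without the blood macrophage-like cluster, and Fn1 between tendon and blood neutrophils to 1.85 after integration. The counts of other pathway genes at least 2-fold higher ran from 16 to 27 and from 26 to 33. With 1 library per site, no spread between animals was measured, and shallow tendon neutrophils (median 3496 UMIs) limit what low receptor counts can show.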

Other observations

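The unnamed tendon clusters held ligand transcripts too. The 14 cells led by Sfrp5, Msln, Lypd2 and Krt19, the second of which encodes mesothelin, held 8158 CPM of Spp1 (7859–8467) and 843 CPM of Fn1, with 69.7% of the Spp1 UMIs in 3 cells and 3916 CPM without them. The 62 cells that carried macrophage genes such as C1qa and Mrc1 together with Camp, Ngp and Ms4a3, genes of granulocyte precursors, held 1582 CPM of Spp1 and 381 CPM of Fn1. The 16 cells with Myog, Ttn and Acta1, genes of muscle, held 327 CPM of Spp1. The 19 cells with Siglech, a gene of plasmacytoid dendritic cells, held 46.2 CPM of Itgb3. With 19 cells at a median of 7175 UMIs, that level rested on few UMIs.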
